A study of Mus musculus with 18 samples.

Results

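Npas4 (neuronal PAS domain protein 4) was followed through a KCl time course in cultured mouse cortical neurons. It is 1 of 18193 genes with a symbol of their own on the Affymetrix arrays of the study. Of 45265 probe sets on both array types, those annotated to Npas4 were taken. There was 1 such probe set, 1459372_at, on the type called set B here (22575 probe sets), and 0 on set A (22690 probe sets). Every Npas4 value below therefore comes from 1 probe set on 9 arrays.

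The cultures were prepared from mouse cortex on postnatal day 0, per labels that also call them embryonic, and were kept for 7 days in vitro. They were exposed to KCl for 0, 1 or 6 h at 55 mM per the sample labels, or 50 mM per the series text. Each time had 3 arrays per set, numbered 1 to 3, and the series text speaks of 3 independent experiments. No strain, genotype or drug is named for any group. The 0 h cultures had no KCl step, and no culture kept for 1 or 6 h without KCl is named, so KCl cannot be told apart from the passage of time or from handling.

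Npas4 belongs to the basic helix-loop-helix PAS family of transcription factors, which bind DNA as pairs with a broadly expressed partner such as Arnt or Arnt2. In neurons its gene is an immediate early gene: membrane depolarization lets calcium in through L-type channels and NMDA receptors, and transcription starts without new protein synthesis. The protein is known for its part in the formation of inhibitory synapses on excitatory neurons and for acting on genes such as Bdnf, which encodes a neurotrophin.

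The deposited signals were linear intensities, and 16 was added before log2 was taken. Set B arrays were then quantile-normalized, while set A arrays kept their scale. A change counted when its limma p-value, adjusted by Benjamini-Hochberg over all tested probe sets of the array set, was under 0.05. Array medians were 163 to 196 units (set A) and 182 to 275 units (set B). The level under which 95% of the values of bacterial control probe sets lay is called the background level, and was 74.8 units (set A) or 369 units (set B). Values below 0 make up 27.4% to 28.0% of probe sets in the set B arrays numbered 1 and are missing from the other 6, so their signals were summarised in another way. They are read apart wherever that matters. Replicates are arrays, and the p-values measure the spread between them.

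The sequence before the Npas4 start is shown because it holds matches to the DNA element of CREB, a calcium-responsive activator. The 250 bases upstream lie at chr19:4989972-4990221 on the minus strand (RefSeq, GRCm38.p6). They are printed 5′ to 3′ with matches in capitals.
Npas4: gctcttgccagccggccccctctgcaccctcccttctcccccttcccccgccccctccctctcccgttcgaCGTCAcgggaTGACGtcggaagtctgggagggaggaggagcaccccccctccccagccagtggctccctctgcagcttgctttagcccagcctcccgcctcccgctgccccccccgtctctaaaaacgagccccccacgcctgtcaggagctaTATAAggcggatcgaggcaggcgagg
The search used TGACG on both strands, which is the core of the cyclic AMP response element (CRE), and TATAA on the gene's strand. The core was matched at -179 to -175 on the opposite strand and at -169 to -165 on the gene's strand, counted from the base before the start as -1. TATAA was matched at -26 to -22. The uninterrupted element TGACGTCA, which counts as 2 overlapping cores, and TCGTG, a core bound by Npas4 dimers, had no match in this window on either strand, nor had the CArG box of serum response factor. Among 27025 genes with such a window, 19.8% held at least 1 core and 4.46% at least 2. TATAA was held by 18.4%, TCGTG by 15.2%, TGACGTCA by 1.77% and the CArG box by 1.62%. A match is a description of letters and shows no binding.

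The data show that Npas4 signal was within the background before KCl, very high after 1 h and lower again, though still far above background, after 6 h. At 0 h the arrays numbered 1, 2 and 3 read -567, 31.9 and 141.1 units, against background levels on those arrays of 346, 265 and 334 units. At 1 h they read 40561.5, 32312.1 and 24394.9 units, which is 157, 100 and 57.7 times the background level of the same array. At 6 h they read 14124.6, 13594.3 and 6838.4 units, or 31.3, 47.1 and 23.4 times that level. The 3 times did not overlap: the lowest 1 h array was above the highest 6 h array, and the lowest 6 h array was above every 0 h array. The array numbered 3 had the highest signal of its time at 0 h and the lowest at 1 h and at 6 h.

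**Figure D1:**
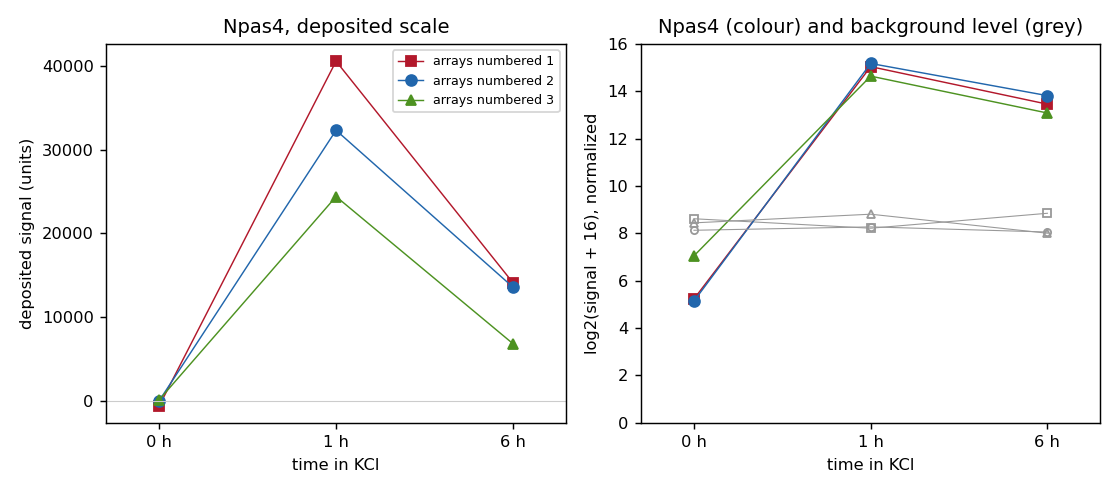
Npas4 signal on each of the 9 set B arrays at 0, 1 and 6 h of KCl, on the deposited scale (left) and as normalized log2(signal + 16) (right), with lines joining arrays of the same number and grey open symbols for each array's background level. All 3 arrays at 0 h lie below the background level, and all arrays at 1 h and 6 h lie above it, with those at 1 h highest.

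In group means, Npas4 stood at -131 ± 381 units at 0 h, 32423 ± 8084 at 1 h and 11519 ± 4062 at 6 h (SD, n = 3 each). On the normalized log2 scale the means were 5.81 ± 1.08, 14.95 ± 0.28 and 13.45 ± 0.37. The spread at 0 h is that of signals inside the background. On the arrays numbered 2 and 3 alone the means were 86.5, 28354 and 10216 units at 0, 1 and 6 h. In these bulk cultures, more cells with Npas4 RNA and more RNA per cell cannot be told apart.

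After 1 h Npas4 was higher than at 0 h by 9.15 ± 0.41 log2 units (SE, 95% interval 8.26 to 10.04, limma adjusted p = 2.17e-07). This was the largest fitted rise among 16883 tested probe sets of set B, and it was also first (6.54) when signals under the background level were set to that level, with Egr3 next (4.11). In that comparison 0.178% of the tested probe sets were higher and 0.0415% lower, 37 in all, or 118 with arrays blocked by replicate number. The same-numbered differences were 9.81, 10.03 and 7.59. Because every 0 h array lay within the background, the size rests on the added 16 units, and only a bound can be given: the 1 h signal was at least 98.8-fold the background level of the 0 h arrays. On the arrays numbered 2 and 3, on their deposited scale, it was at least 94.4-fold. A two-sided exact permutation test gave p = 0.1, the smallest that 3 arrays against 3 allow.

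After 6 h Npas4 was higher than at 0 h by 7.65 ± 0.41 log2 units (95% interval 6.75 to 8.54, limma adjusted p = 9.25e-07), again the largest fitted rise on set B. With signals under the background level set to that level it was 5.04 and still first, followed by Homer1 (4.05) and Adcyap1 (3.74). Here 2.2% of the tested probe sets were higher and 2.8% lower, 844 in all, or 1470 with the replicate block. The same-numbered differences were 8.23, 8.68 and 6.03. As a bound, the 6 h signal was at least 34.9-fold the background level of the 0 h arrays, and at least 32.4-fold on the arrays numbered 2 and 3. The exact permutation p was again 0.1.

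Between the later times, Npas4 at 6 h stood below 1 h by -1.50 ± 0.41 log2 units (95% interval -2.39 to -0.61), a ratio of 0.353. The limma adjusted p of 0.0912 did not pass, in a comparison in which 0.965% of probe sets were higher and 1.39% lower (397 in all, 859 with the replicate block). The unadjusted p was 0.00313. With arrays blocked by replicate number the difference was the same and passed (SE 0.39, adjusted p = 0.0474). The 6 h signal was 34.8%, 42.1% and 28.0% of the 1 h signal on the arrays numbered 1, 2 and 3, so all 3 pairs had the same direction. The order of levels was thus 1 h, 6 h, 0 h. The fit without the block did not separate 1 h from 6 h, although their arrays did not overlap. It used 1 spread for all 3 times, and the log2 SD was 1.08 at 0 h, 0.28 at 1 h and 0.37 at 6 h.

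**Figure D2:**
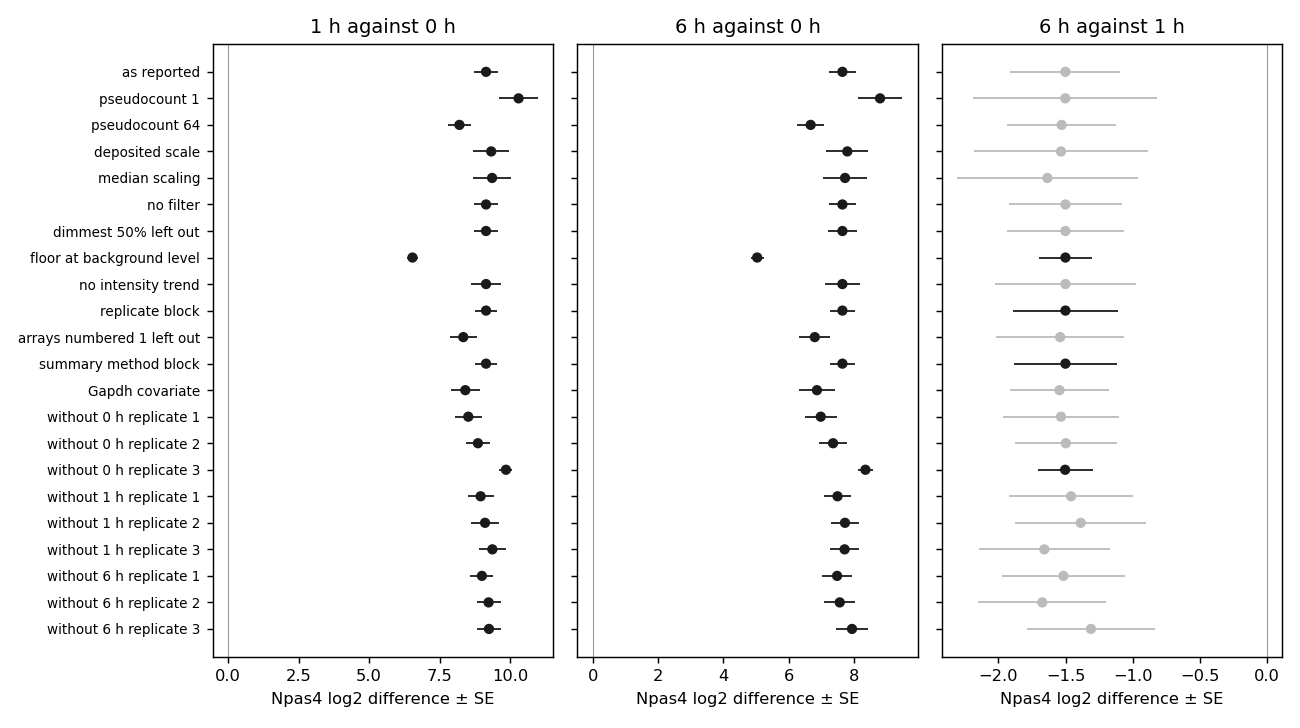
Npas4 log2 difference ± SE as reported (top row) and under 21 other settings, in panels for each pair of times, with black for an adjusted p under 0.05 and grey otherwise. Both differences from 0 h are black throughout, and 6 h against 1 h is black in 4 of the 21.

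Signs of RNA quality and of other cells moved with time. The 5' to 3' signal ratio of Gapdh control probe sets on set B averaged 0.855, 1.18 and 1.21 at 0, 1 and 6 h, and that of Actb averaged 0.366, 0.650 and 0.574. With the Gapdh ratio as a covariate, Npas4 was higher by 8.41 ± 0.52 log2 units at 1 h (limma adjusted p = 5.89e-05) and by 6.87 ± 0.54 at 6 h (adjusted p = 0.000194). Neuronal markers were present, and the summed signal of the 7 of 8 read on set A ran from 22076 to 23871 units at 0 h, 21622 to 24047 at 1 h and 21543 to 23401 at 6 h. Single members differed: of all 8, 0 passed at 1 h, while at 6 h against 0 h Gad1, an enzyme of GABA synthesis (1.06), and the vesicle fusion gene Snap25 (0.72) were higher and the tubulin gene Tubb3 was lower (-0.83). Summed astrocyte markers (5 of 6 on set A) ran from 13922 to 14559, from 9305 to 12502 and from 9463 to 11595 units at these times, with no overlap between 0 h and either later time. Of all 6, the transporter gene Slc1a3 was lower at 1 h (-0.54) and Gfap (-0.70) and Aqp4 (-0.53) at 6 h. Summed oligodendrocyte-lineage markers (4 of 6) ran from 6191 to 8480, 5073 to 6828 and 5726 to 7500 units. Microglial markers (4 of 6) summed to 563 to 825 units and vascular and fibroblast markers (4 of 6) to 296 to 605 over all arrays. Of 27 markers read, 5 (Cx3cr1, Pecam1, Cldn5, Col1a1 and Dcn) had a mean below the background level at 1 time or more and 0 at all times, and Pecam1 was lower at 6 h against 0 h (-1.54). The part of these cells in the Npas4 signal was not tested.

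Among set B probe sets that passed, the 10 with the largest fitted rise at each time were read, Npas4 being first in both. At 1 h the others included the orphan nuclear receptor gene Nr4a2 on 2 probe sets (log2 4.32 and 2.69), A830010M20Rik (3.95) and the long noncoding RNA Malat1 (2.57). Nr4a2 on the first of these and A830010M20Rik had 0 h means of 291 and 134 units, under the set B background level of 369 units. The size of these rises thus rests in part on the added 16. With signals under the background level set to that level, Nr4a2 stood at 3.79. The rest of the 10 had every 0 h array below the background level, so that the size and order of their rises rest on the added 16 and only bounds are given. At 1 h these were at least 18.3-fold for Egr3, a zinc-finger factor, and 4.05-fold for Kidins220, a membrane scaffold of neurotrophin receptors. They were at least 3.62-fold for Csrnp1 (on 1 of its 2 probe sets), 3.16-fold for the antiproliferative gene Tob1 and 1.23-fold for Cds1, which acts in phospholipid synthesis. Of the 4 probe sets of Kidins220, 2 passed at 1 h, and its brightest did not (25686 units at 0 h and 24871 at 1 h). A further 22 set B probe sets with a single gene symbol had larger fitted values than Malat1 and did not pass, among them Adcyap1 (3.10, limma adjusted p = 0.0512, and 0.0029 with the replicate block).

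At 6 h the synaptic scaffold gene Homer1 averaged 14837 units on 1 probe set, against 873 at 0 h (4.05). Its other set B probe sets stood at 0.46 and 0.59 and did not pass (limma adjusted p = 0.208 and 0.0967, the latter 0.0469 with the replicate block). Over both array sets 4 of its 6 probe sets passed at 6 h. A830010M20Rik stood at 3.70, again from a 0 h mean under the background level. The other genes of the 10 had every 0 h array below it. Adcyap1, which encodes the neuropeptide PACAP, was at least 14.2-fold higher at 6 h, Lin7a 3.42-fold, Zfp385b 3.29-fold, Cds1 2.33-fold, Chst8 2.26-fold, Zc3h12c 2.01-fold and Ptprk 1.16-fold. Besides Npas4, Cds1 and A830010M20Rik stood in both sets of 10.

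The time course of Npas4 was set beside 21 other activity-induced genes. Of these, 18 were higher at 1 h than at 0 h and 0 lower, where 1.1% of 15232 genes, each read on 1 probe set, were higher and 0.689% lower. At 6 h against 0 h 15 were higher and 0 lower (6.1% and 10.5% of all genes), and at 6 h against 1 h 2 were higher and 13 lower (3.96% and 5.79%). The median log2 differences of the list were 3.81, 1.31 and -2.13, beside -0.05, -0.09 and -0.05 over all genes. In 4 members (Arc, Atf3, Maff and Nr4a3) all 0 h arrays were below background, and with these at their bounds the first 2 medians were 3.33 and 1.31. The genes were listed for their known response to activity, so the count at 1 h is no independent evidence.

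Members of the list differed in how much of the 1 h signal was left. Fos, a subunit of AP-1, averaged 245 units at 0 h, 24849 at 1 h and 3862 at 6 h, so that the 6 h mean was 15.5% of the 1 h mean. It was higher by 6.58 log2 units at 1 h and 3.91 at 6 h against 0 h (limma adjusted p = 1.74e-10 and 4.8e-08). Egr1, a zinc-finger factor, stood at 5.74 and 1.31, and its 6 h mean was 4.58% of that at 1 h. Arc, which acts in AMPA receptor endocytosis, stood at 5.21 and 0.18 (adjusted p = 0.734 at 6 h), and its 0 h and 6 h means lay within the background, so that at 1 h it was at least 23.3-fold higher. Nr4a1, an orphan nuclear receptor (5.58 and 3.45), and the MAP kinase phosphatase gene Dusp1 (4.49 and 3.06) had 22.8% and 37.0% left. Crem, a cAMP-responsive factor, stood higher at 6 h than at 1 h (0.93 at 1 h and 2.63 at 6 h against 0 h, adjusted p = 6.23e-05 for 6 h against 1 h). These shares describe single probe sets, and no difference from Npas4 was tested.

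On set B itself, where the arrays are those of Npas4, Egr3 averaged 225 units at 0 h, 6097 at 1 h and 675 at 6 h. It was lower at 6 h than at 1 h by -3.30 log2 units (limma adjusted p = 0.000475). Nr4a2 averaged 291, 5371 and 2844 units at these times, and its 6 h level was not separated from that at 1 h (-0.84, adjusted p = 0.536). Nr4a3, a relative of Nr4a2, averaged 6261, 35045 and 59007 units and was higher at 6 h than at 1 h by 0.73 (adjusted p = 0.00456). The set A probe sets of Egr3 and Nr4a3 averaged at most 298 units at any time. That of Egr3 and the tested one of Nr4a3 did not pass at 1 h (0.87 and 0.17). The tested one of Nr4a3 averaged under the background level at every time. Its other set A probe set, too dim to be tested, averaged 14.9, 93.3 and 35.0 units at 0, 1 and 6 h.

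**Figure D3:**
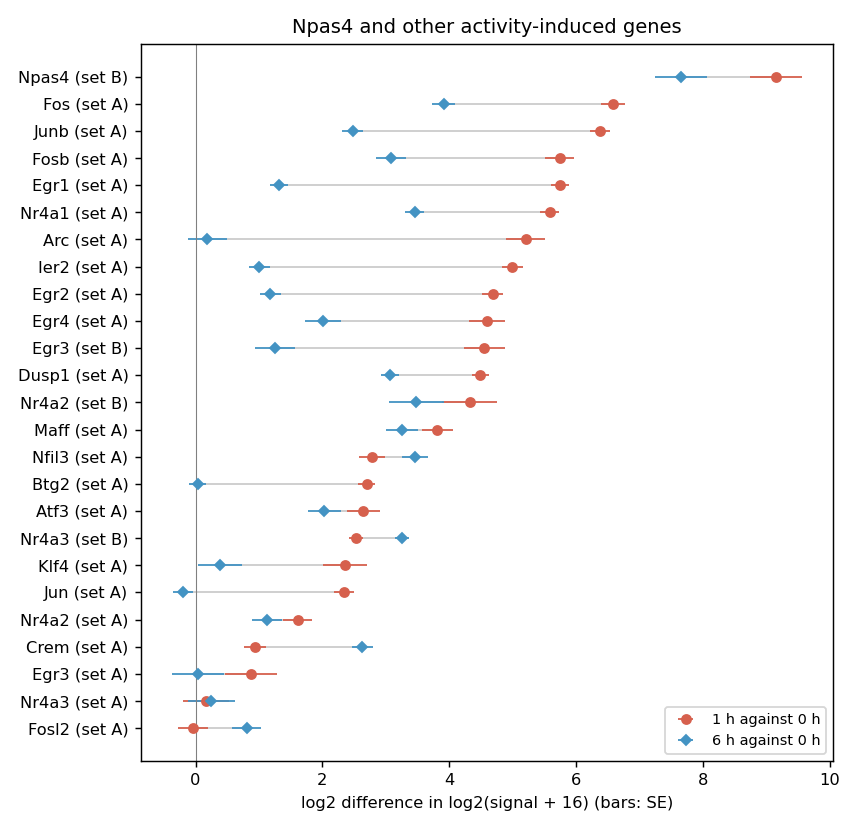
Log2 difference in log2(signal + 16) from 0 h, with SE bars, for Npas4 and the activity-induced genes after 1 h (red circles) and 6 h (blue diamonds), 1 row per gene and array set, ordered by the 1 h value. Npas4 has the largest fitted values (9.15 and 7.65), which rest on the added 16; with signals floored at the background level its 1 h value is 6.54, beside 6.58 for Fos. Arc, Btg2 and Jun, all high at 1 h, lie near 0 at 6 h.

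The cores before the Npas4 start were compared with those of the same list. A RefSeq window was present for 16 of the 21 genes, and 14 of these held at least 1 core and 9 at least 2. The TGACGTCA element was held by 3 (Btg2, Dusp1 and Maff). Shown are 40 bases of Npas4 and of the 9 genes with at least 2 cores, each around its densest cores, with cores in capitals (GRCm38.p6, 5′ to 3′ on the gene's strand).
Npas4, chr19:4990123-4990162, minus strand: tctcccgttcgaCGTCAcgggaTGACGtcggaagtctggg
Fos, chr12:85473807-85473846, plus strand: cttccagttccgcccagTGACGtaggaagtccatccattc
Egr2, chr10:67537797-67537836, plus strand: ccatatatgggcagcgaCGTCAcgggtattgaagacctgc
Egr4, chr6:85513676-85513715, minus strand: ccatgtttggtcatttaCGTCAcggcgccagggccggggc
Nr4a1, chr15:101266774-101266813, plus strand: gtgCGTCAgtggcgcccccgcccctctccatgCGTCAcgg
Nr4a2, chr2:57124109-57124148, minus strand: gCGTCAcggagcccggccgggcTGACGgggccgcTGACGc
Nr4a3, chr4:48045070-48045109, plus strand: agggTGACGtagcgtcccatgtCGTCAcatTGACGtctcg
Btg2, chr1:134079298-134079337, minus strand: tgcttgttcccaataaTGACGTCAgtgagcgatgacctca
Maff, chr15:79347475-79347514, plus strand: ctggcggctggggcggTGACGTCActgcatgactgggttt
Dusp1, chr17:26508592-26508631, minus strand: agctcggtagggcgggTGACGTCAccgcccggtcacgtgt
Btg2, Dusp1 and Maff hold the uninterrupted element. In Npas4 the cores stand in the opposite order and point away from each other, with 5 other bases between them.

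**Figure D4:**
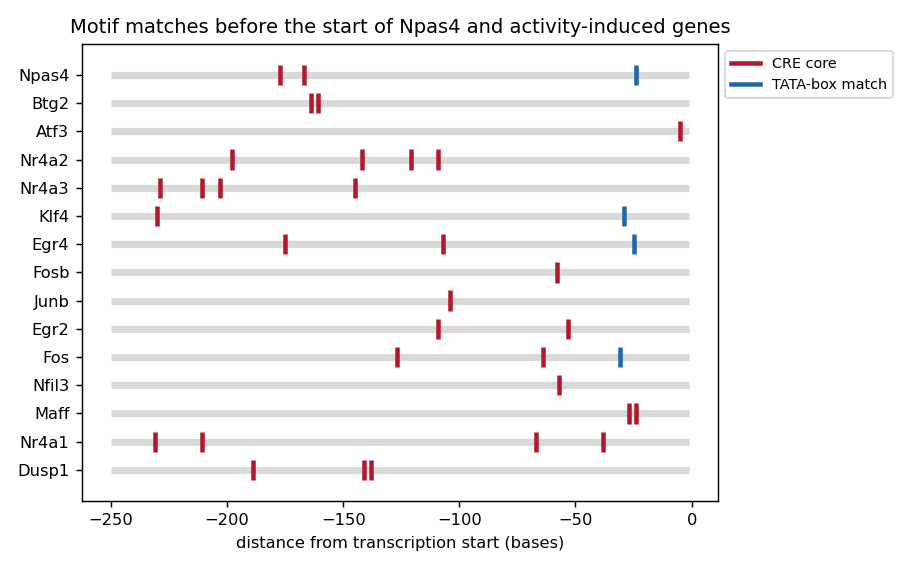
Position of CRE cores (red) and TATA-box matches (blue) in the 250 bases before the transcription start of Npas4 and of the 14 activity-induced genes with a core, using for genes with several starts the first listed window that holds a core. The horizontal axis is the distance from the start in bases; adjoining red marks in Btg2, Maff and Dusp1 are overlapping cores of an uninterrupted element.

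The genes most like Npas4 in pattern were found by Pearson r of log2 values over the 9 arrays. These are descriptions, and all points share the 3 times. On set B, among 11606 probe sets of 1 gene, the highest r belonged to Nr4a2 (0.979), the phosphoinositide phosphatase gene Synj1 (0.963), Relch (0.963), Necab1 (0.962), Rusc1 (0.961), Fam171a2 (0.961), Kidins220 (0.956 and 0.946 on 2 probe sets), Coq10b (0.949) and Tlk1 (0.946). A high r did not mean a large change: Synj1 stood at 0.28 at 1 h and 0.23 at 6 h against 0 h and did not pass (limma adjusted p = 0.655 and 0.358). The other 2 probe sets of Kidins220 did not pass at 1 h (-0.07 and 0.30). At 6 h against 0 h they stood at -0.43 and -1.72 (limma adjusted p = 0.0743 and 0.0505, and 0.0193 and 0.00278 with the replicate block).

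On set A, 15565 probe sets were set beside set B arrays of the same time and number, which the labels do not say came from the same RNA. The highest r belonged to the receptor tyrosine kinase gene Met (0.983), the phosphatase gene Ptprk (0.982), Efr3a (0.982), the transcriptional coregulator gene Cited2 (0.981), Maff (0.980), a small Maf factor, Stam2 (0.980), Gnb4 (0.977), the ERK phosphatase gene Dusp6 (0.977), Atf3 (0.975) and Zfand5 (0.974). All 10 passed as higher at 1 h and at 6 h, beside 1.1% and 6.1% of all genes. Genes chosen for likeness to Npas4 are low at 0 h and higher later, so this count is no independent evidence. Met averaged 30.0 units at 0 h, below background, 304 at 1 h and 218 at 6 h (at least 4.45-fold and 3.15-fold higher), and Cited2 350, 1569 and 1335. Among the activity-induced genes r was 0.963 for Fos and 0.969 for Nr4a1, against 0.636 for Arc and 0.259 for Fosl2.

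Of the partners with which Npas4 pairs, neither Arnt nor Arnt2 passed at 1 h on any probe set. Arnt averaged 86.9 ± 19.7 units at 0 h, 121 ± 34.1 at 1 h and 143 ± 42.2 at 6 h, at log2 0.40 for 1 h and 0.61 for 6 h against 0 h (limma adjusted p = 0.543 and 0.207). None of the 5 probe sets of Arnt passed, and they differed in direction. For 1 h and 6 h against 0 h, the other set A probe set stood at 0.66 and 0.30. Those on set B stood at 0.04 and -0.15, at -1.04 and -1.54, and at -2.48 and -2.26. The one at -1.04 averaged 193, 111 and 44.6 units at 0, 1 and 6 h, and the one at -2.48 averaged 336, 47.2 and -17.3 units. All of these means lay under the set B background level of 369 units. The other set A probe set averaged 47.7 units at 0 h, under the set A background level of 74.8 units. Arnt2, the form abundant in neurons, averaged 11745 units at 0 h, 12576 at 1 h and 10234 at 6 h on its set B probe set (0.16 and -0.13, adjusted p = 0.999 and 0.81). On set A it stood at 0.71 and 0.81 without passing, and another probe set there passed at 6 h (1.95, adjusted p = 0.0201). The latter averaged 42.7 units at 0 h, under the set A background level. Arntl, the clock factor BMAL1, was higher at 6 h by 0.87 ± 0.17 (adjusted p = 0.00324) and stood at 0.64 at 1 h (adjusted p = 0.0559). Its set B probe set stood at -0.31 and 0.25 and did not pass.

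Among 19 of 21 listed bHLH-PAS and other PAS factors, Per1 was higher at 1 h and 0 were lower (1.1% and 0.689% of all genes). At 6 h against 0 h 3 were higher and 1 lower (6.1% and 10.5% of all genes), and at 6 h against 1 h 0 were higher and 1 lower (3.96% and 5.79%). The medians were 0.22, 0.05 and 0.09. The clock repressor Per1 averaged 528 ± 95.5 units at 0 h, 1143 ± 96.0 at 1 h and 1214 ± 57.8 at 6 h (1.10 ± 0.15 and 1.19 ± 0.15 against 0 h, limma adjusted p = 0.00116 and 0.000153). Per2 was higher at 6 h by 0.99 (adjusted p = 0.0277), along with Arntl, and the coactivator gene Ncoa1 was lower by -0.85 at 6 h against 0 h (adjusted p = 0.004) and by -0.59 against 1 h (adjusted p = 0.045). The tested probe sets of Npas2 and Npas3 did not pass: Npas2 stood at -0.31 and -0.10, and Npas3 at 0.15 and -0.56 on the probe set read. A further Npas2 probe set, too dim to be tested, averaged 23.3, 75.0 and 86.9 units at 0, 1 and 6 h. Npas1 and Ahrr were too dim to be tested. The hypoxia factor Hif1a stood at 0.20 and 0.10 on its brightest probe set, while 1 of its other 3 passed at 1 h and 6 h (1.99 and 1.86). The one that passed averaged 70.2 units at 0 h, under the set A background level of 74.8 units.

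**Figure D5:**
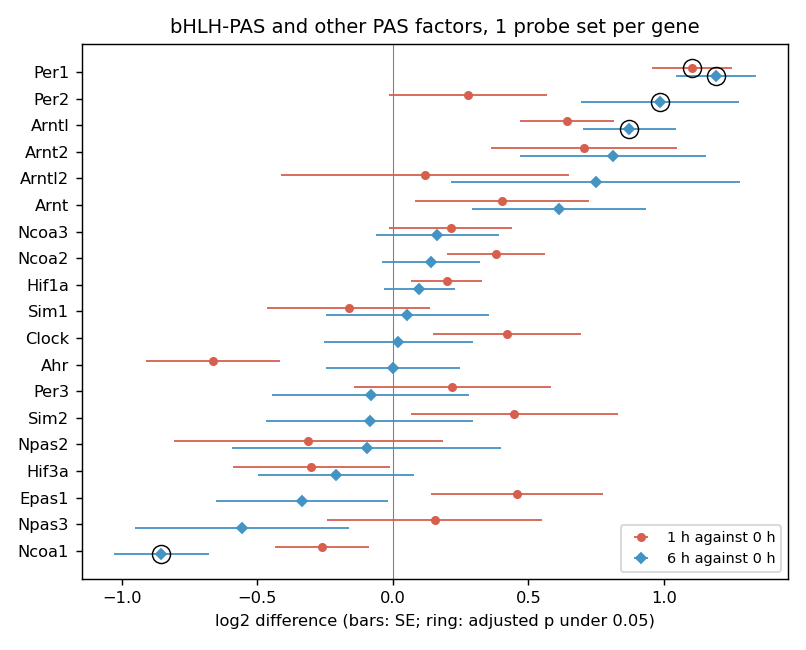
Log2 difference from 0 h with SE bars for 19 bHLH-PAS and other PAS factors after 1 h (red circles) and 6 h (blue diamonds), 1 probe set per gene, with rings for an adjusted p under 0.05. Ringed are Per1 at both times and Per2, Arntl and Ncoa1 at 6 h, and no value exceeds 1.19, beside a lower bound of 6.63 for Npas4 at 1 h.

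Genes that work elsewhere has linked to Npas4 were listed from general knowledge, with earlier results of these data known. Of these, 17 of 18 were measured, Gem being too dim. At 1 h against 0 h 3 were higher and 1 lower, beside 1.1% and 0.689% of all genes. At 6 h against 0 h 8 were higher and 1 lower (6.1% and 10.5% of all genes), and at 6 h against 1 h 5 were higher and 2 lower (3.96% and 5.79%). Their median log2 differences were 0.21, 0.84 and 0.53. Given how the list was made, its counts are no independent evidence, and whether Npas4 acts on these genes here was not tested. Higher at 1 h were Csrnp1, a nuclear factor (at least 3.62-fold, its 0 h arrays being below background), the G-protein regulator Rgs2 (2.23) and the kinase gene Plk2 (1.34). Of all their probe sets, 1 of 2 passed at 1 h for Csrnp1, 3 of 4 for Rgs2 and 1 of 2 for Plk2. The other Csrnp1 probe set averaged 456 units at 0 h and stood at 0.50 at 1 h and 0.68 at 6 h (limma adjusted p = 0.999 and 0.694). Lower was Cdk5r1, which activates the kinase Cdk5 (-0.63, limma adjusted p = 0.0171).

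At 6 h Bdnf averaged 2308 ± 325 units, against 229 ± 120 at 0 h (3.39 ± 0.33, limma adjusted p = 2.41e-05). At 1 h it averaged 458 ± 64.1 units (1.10, adjusted p = 0.0785 against 0 h), though its other probe set passed (1.97, adjusted p = 0.00994). This other probe set averaged 51.0 units at 0 h, under the set A background level. Nptx2, a secreted pentraxin of synapses, averaged 105 units at 0 h, 89.4 at 1 h and 705 at 6 h (2.56 for 6 h against 0 h, adjusted p = 0.000142). Its other probe set stood at 1.00 for 6 h against 0 h (limma adjusted p = 0.0192). Pcsk1, which cleaves prohormones (5.01), Rgs2 (4.34), Csrnp1 (at least 3.41-fold), Homer1 (2.09), the receptor gene Gpr3 (1.63) and Osgin2 (0.83) were also higher at 6 h, and Cdk5r1 was lower by -1.23. Plk2 had an average of 3088 units at 1 h and 1390 at 6 h and did not pass at 6 h against 0 h (0.22, adjusted p = 0.371). Igf1 (0.84) and the potassium channel gene Kcna1 (0.84) did not pass at 6 h, nor did Frmpd3, Mdm2, Dnajb5, Dbn1 and Syt10 (0.06 to -0.47). TCGTG, held by 15.2% of all genes with a window, was found before the starts of 6 of the 13 list members with a window (Bdnf, Csrnp1, Dnajb5, Frmpd3, Plk2 and Rgs2).

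Of 21 measured genes of calcium entry, calcium-dependent kinases and factors that act on activity genes, 1 was higher at 1 h than at 0 h and 0 lower (1.1% and 0.689% of all genes). At 6 h against 0 h 2 were higher (9.52%, near the 6.1% of all genes) and 5 lower (10.5% of all genes), and at 6 h against 1 h 2 were higher and 3 lower (3.96% and 5.79% of all genes). The medians were 0.09, -0.16 and -0.21. Srf, the serum response factor, was higher at 1 h (0.87, limma adjusted p = 0.00321) and stood at 0.06 at 6 h. The deacetylase genes Hdac4 (1.29) and Hdac5 (1.07) were higher at 6 h. The coactivator genes Crebbp (-1.32) and Crtc1 (-0.89), the kinase genes Camk2a (-1.19) and Camk2b (-0.61) and Mef2a (-0.63) were lower. The L-type channel genes Cacna1c (-0.44 and -0.48 at 1 h and 6 h) and Cacna1d (0.50 and 0.22) and the activator gene Creb1 (0.31 and 0.26) did not pass. The factor gene Mef2c stood at 0.11 at 1 h on its brightest probe set, while 3 of its 5 passed as higher.

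The neighbours of Npas4 on chromosome 19 did not pass at 1 h, when 1.1% of all genes were higher and 0.689% lower. The 3 named genes on each side are Dpp3, Peli3 and Mrpl11 before it and Slc29a2, B4gat1 and Brms1 after it in coordinate order. Of these 6 genes, 5 had a tested probe set, 8 probe sets in all, and their 1 h differences from 0 h ran from -0.58 to 0.35. At 6 h against 0 h, 0 of the 8 probe sets were higher and 2 lower, beside 6.1% and 10.5% of all genes. Lower were the peptidase gene Dpp3 (-0.52, limma adjusted p = 0.044) and the nucleoside transporter gene Slc29a2 (-0.94, adjusted p = 0.0276). Another probe set of Slc29a2, on set B, stood at -2.17 at 6 h (adjusted p = 0.112, and 0.0464 with the replicate block).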

How the data were processed

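RNA of mouse cortical cultures was labelled with biotin from 200 ng of total RNA and hybridised to Affymetrix arrays, per the labels' protocols. The deposited values are linear intensities, 1 per probe set and array. How they were background-corrected and summarised is not given in the sources used here. Judged by the values, the authors had scaled each array to a 2% trimmed mean near 500. Array medians spread over 0.24 log2 (A) and 0.56 log2 (B), and sets with over 0.5 were quantile-normalized on log2(value + 16), values below 0 being set to 0 first. Control probe sets and the dimmest 25% were left out, which left 16969 (A) and 16883 (B) probe sets. The sets were fitted apart with limma 3.58.1 in R 4.3.3 (means of the 3 times, intensity trend, two-sided p), after tests on simulated data. The number of arrays limits precision.

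Symbols came from GEO's platform annotation: 20393 (A) and 14674 (B) probe sets carry 1 symbol, 691 and 245 several, and 1606 and 7656 none. For lists, a gene was read on its brightest probe set, set A first. Named are Npas4, the 10 genes per set most like it, the 10 largest rises of set B at each time (of those that passed and were higher in all 3 same-numbered pairs), 3 neighbours on each side and list members; further probe sets and examples were chosen after their values were seen. Members and lists were chosen with earlier results of these data known. Promoter windows and the order of neighbours are from RefSeq, GRCm38.p6. Plots were made in Python 3.11.15 (matplotlib 3.10.9).

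Pairing was checked by correlating deviations from the mean of each time. On set B all 9 same-number correlations were over 0.1 (0.150 to 0.476), so blocked values are given for named set B results that they change, beside the result or in the last paragraph. This comes from the data, since no label ties numbers to an experiment, and arrays numbered 2 and 3 correlated with each other almost as much across numbers (0.132 to 0.197) as within them (0.150 to 0.207). On set A same-number correlations were 0.0181 to 0.174. Alternatives changed the added value, scaling, filter, floor, trend, blocks, the Gapdh ratio and the arrays used.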

Additional observations from a re-analysis of the deposited data

How the results depend on the processing

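Under 21 other settings, Npas4 stayed past the threshold at 1 h against 0 h (6.54 to 10.3, limma adjusted p from 1.2e-09 to 0.00207) and at 6 h against 0 h (5.04 to 8.80, adjusted p from 7.72e-09 to 0.00209). Leaving out 1 array at a time gave 8.52 to 9.85 and 6.98 to 8.35. At 6 h against 1 h it was -1.67 to -1.31 when 1 array was left out, and adjusted p ran from 0.00345 to 0.691 over all settings. There it passed in 4 settings, with -1.50 each time: with a floor at the background level (adjusted p = 0.00733), with the replicate number as a block (adjusted p = 0.0474), with the summary method as a block (adjusted p = 0.0398) and without the 0 h replicate 3 (adjusted p = 0.00345). Without the set B arrays numbered 1 the differences were 8.34, 6.80 and -1.54 (adjusted p = 0.000105, 0.00014 and 0.164).

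Counts of changed set B probe sets were 37 for 1 h and 844 for 6 h, both against 0 h, and 397 between 6 h and 1 h, and are given in this order. They were 16, 481 and 116 with 64 added, 15, 443 and 97 on the deposited scale, 5, 119 and 3 after median scaling, and 5, 150 and 12 without the intensity trend. They were 118, 1470 and 859 with the replicate block, and 112, 1429 and 808 with the summary method as a block. At 1 h the count was 21 with the floor at background, 20 without the arrays numbered 1 and 4 with the Gapdh ratio as a covariate, which gave 123 at 6 h against 0 h. Leaving out 1 array gave 7 (without the 0 h replicate 1) to 69 (without the 0 h replicate 3), 205 to 823 and 75 to 431; the lowest of the last 2 were also without the 0 h replicate 1. The 1 h probe set count of set A (707) was 265 without the trend, 64 with the Gapdh ratio, and 277 (without the 1 h replicate 3) to 1308 (without the 0 h replicate 3) when 1 array was left out. Its 6 h counts were 3753 and 1964, ran from 2606 to 3902 and from 1030 to 2149 (both lowest without the 6 h replicate 2), and 584 changed at 6 h against 0 h with the Gapdh ratio.

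Over all lists, higher members numbered 23, 28 and 9 in the 3 comparisons (22 to 24, 25 to 29 and 8 to 10 when 1 array was left out) and lower ones 1, 7 and 19 (0 to 1, 5 to 8 and 17 to 19). With the Gapdh ratio 0 were lower at 1 h and 1 at 6 h against 0 h, and without the trend 0 at 1 h. On set A the replicate block gave 1022, 4119 and 2332 changed probe sets. Of 53 named set B probe sets the block called 4, 5 and 2 more and lost 0. The 4 at 1 h were Necab1, Rusc1, Tlk1 and Adcyap1 (limma adjusted p = 0.0433, 0.0347, 0.0486 and 0.0029 with the block). The 5 at 6 h against 0 h were Necab1 (0.0244), Homer1 (0.0469), and, as lower, Kidins220 (0.0193 and 0.00278) and Slc29a2 (0.0464). The 2 at 6 h against 1 h were Crtc1 (0.0183) and Npas4 (0.0474), both lower. No called result changed sign in these alternatives. Signals within the background limit the size of folds against 0 h.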
